A study of Homo sapiens with 12 samples.

Results

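The genes described are 10 transcription factor and immediate early genes, chosen by name among the 58381 genes counted. They are FOS, FOSB, FOSL1 and FOSL2, JUN, JUNB and JUND, ATF3, EGR1 and IER3. Their transcripts were measured by RNA-seq in Hs578T and MDA-MB-231 cells, established human triple negative breast cancer cell lines, with and without CD44, the cell surface receptor for hyaluronan. The comparisons ask how far the level of these factors differed after loss of CD44 in each line, whether the lines differed in that change, and how the lines differed with CD44 present.

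The 12 libraries fell into 4 groups of 3. Both lines carried a lentiviral, doxycycline-inducible Cas9. Hs578T CD44 KO and MDA-MB-231 CD44 KO cells received guides against exons of CD44 and were sorted as CD29+/CD44-. Hs578T CD44 WT and MDA-MB-231 CD44 WT cells received the transfection reagent without guides and were sorted as CD29+/CD44+. Guides and sort gate thus differed together with CD44, and their parts in a change cannot be told apart. All 4 groups were sorted pools rather than clones, were expanded after the sort and were kept in low serum before RNA was taken, a state in which immediate early genes are usually low. The sources used here do not say if replicate libraries stem from separate cultures, so the p-values measure the spread between these libraries, which may be technical. The RNA was from bulk cells, so fewer expressing cells and less RNA per cell cannot be told apart.

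FOS and JUN family proteins share a basic leucine zipper, pair with each other as the AP-1 dimer and bind DNA at AP-1 sites. JUN proteins can pair among themselves, while FOS proteins need a JUN partner. Growth factors, serum and stress act through MAP kinases on SRF and its ETS partners, which switch on FOS and EGR1 within minutes without new protein synthesis, hence the name immediate early genes. FOSL1 and FOSL2 follow later and stay longer, and FOSL1 is known as the prominent FOS protein of mesenchymal breast cancer cells.

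Promoter sequences of EGR1 and JUND are shown because EGR1 had the largest change of the members in Hs578T and JUND the smallest adjusted p in MDA-MB-231. Each is the stretch of 250 bases before the annotated start, from RefSeq (GRCh38.p14), written 5′ to 3′ along the strand of the gene. Capitals mark CArG boxes, which SRF binds, in EGR1 (plus strand, chr5:138465229-138465478) and a CRE, TGACGTCA, which ATF and CREB proteins bind, in JUND (minus strand, chr19:18281623-18281872).
EGR1: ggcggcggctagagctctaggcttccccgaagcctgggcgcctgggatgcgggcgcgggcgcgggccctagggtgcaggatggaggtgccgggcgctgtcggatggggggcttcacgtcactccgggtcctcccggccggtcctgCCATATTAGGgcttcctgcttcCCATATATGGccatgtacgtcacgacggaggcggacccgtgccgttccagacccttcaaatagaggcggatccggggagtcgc
JUND: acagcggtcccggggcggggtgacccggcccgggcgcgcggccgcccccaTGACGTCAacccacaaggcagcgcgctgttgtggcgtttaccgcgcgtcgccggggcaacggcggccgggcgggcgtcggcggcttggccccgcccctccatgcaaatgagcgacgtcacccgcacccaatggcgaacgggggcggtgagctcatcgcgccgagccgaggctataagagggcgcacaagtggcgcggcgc
The 2 CArG boxes of EGR1 begin at -105 and -83 bases from the start, and the CRE of JUND begins at -200 bases from it. Promoters of 8 of the 10 members were matched, 9 in all because ATF3 had 2, and FOSL1 and IER3 were not among them. In windows from 250 bases before to 50 after the start, read on both strands, CArG boxes were found in 1 of these 9 promoters, a CRE in 1, and an AP-1 site, TGAGTCA or TGACTCA, in 1, that of FOSL2. Among all 35116 promoters of this length, 1.293% held a CArG box, 1.848% a CRE and 4.949% an AP-1 site. The motifs do not overlap each other in these windows, and a match is a description of letters, not of binding. Only exact matches within the window were counted. A promoter without a match may therefore hold such a site further upstream or with a differing base.

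Total counts ran from 10257586 to 19725543 per library. CD44 itself lay between 493.9 and 527 CPM (counts scaled to the library size) in Hs578T CD44 WT and between 24.9 and 28.6 CPM in Hs578T CD44 KO, and between 359.6 and 363 CPM and between 30.0 and 40.3 CPM in the corresponding MDA-MB-231 groups, as labelled. VIM, a mesenchymal filament gene, was at 3730 CPM or more in every library, ESR1 at no more than 1.15 CPM and PGR at 0 counts. Epithelial genes were mixed. The keratin genes KRT8 and KRT18 ran from 269.6 to 596.3 and from 357.2 to 744.7 CPM over all libraries, while CDH1 stayed below 1 CPM. EPCAM averaged 0.056 CPM with CD44 and 0.055 CPM without it for Hs578T, against 17.6 and 16.8 CPM for MDA-MB-231. ERBB2, the HER2 gene, ran from 57.4 to 101.3 CPM over all libraries. Of markers of other cell types, CD3E, CD14 and VWF stayed below 1 CPM in every library and PECAM1, an endothelial gene, averaged 11.6 and 13.9 CPM in Hs578T CD44 WT and CD44 KO, while PTPRC, a leukocyte gene, reached 3.78 ± 0.895 CPM in Hs578T CD44 KO (mean ± SD, n = 3) against 0.369 ± 0.179 CPM in CD44 WT. The part of PTPRC in the changes given here was not tested.

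In Hs578T, 1 member rose after CD44 loss, FOSL1, and in MDA-MB-231 none did. Of the 9 members with enough counts to test, 1 of 9 passed an adjusted p of 0.01 in Hs578T, against 7.51% of all 15836 genes tested, and 0 of 9 in MDA-MB-231, against 4.62% (quasi-likelihood test of edgeR, Benjamini-Hochberg adjustment). With a threshold of 0.05 the counts were 2 and 1, with EGR1 added in Hs578T and JUND in MDA-MB-231, against 2253 and 1518 of all 15836 genes. In MDA-MB-231, 1 member, JUND, had an unadjusted p under 0.05, and DESeq2 called 1, also JUND. The change differed between the lines for 0 of 9 members at 0.01, against 4.12% of all genes (edgeR). At 0.05 it differed for 1, FOSL1, against 1670 of all 15836 genes (edgeR), and for 0 by DESeq2 at 0.01. For this difference 6 members had an unadjusted p under 0.05 (edgeR). Counts by unadjusted p, here and for the lists below, are not set against all genes and are not read as a result. The 9 members had a median log2 fold change of -0.02 (Hs578T) and -0.05 (MDA-MB-231), and all genes one of -0.00162 and -0.00958.

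**Figure D1:**
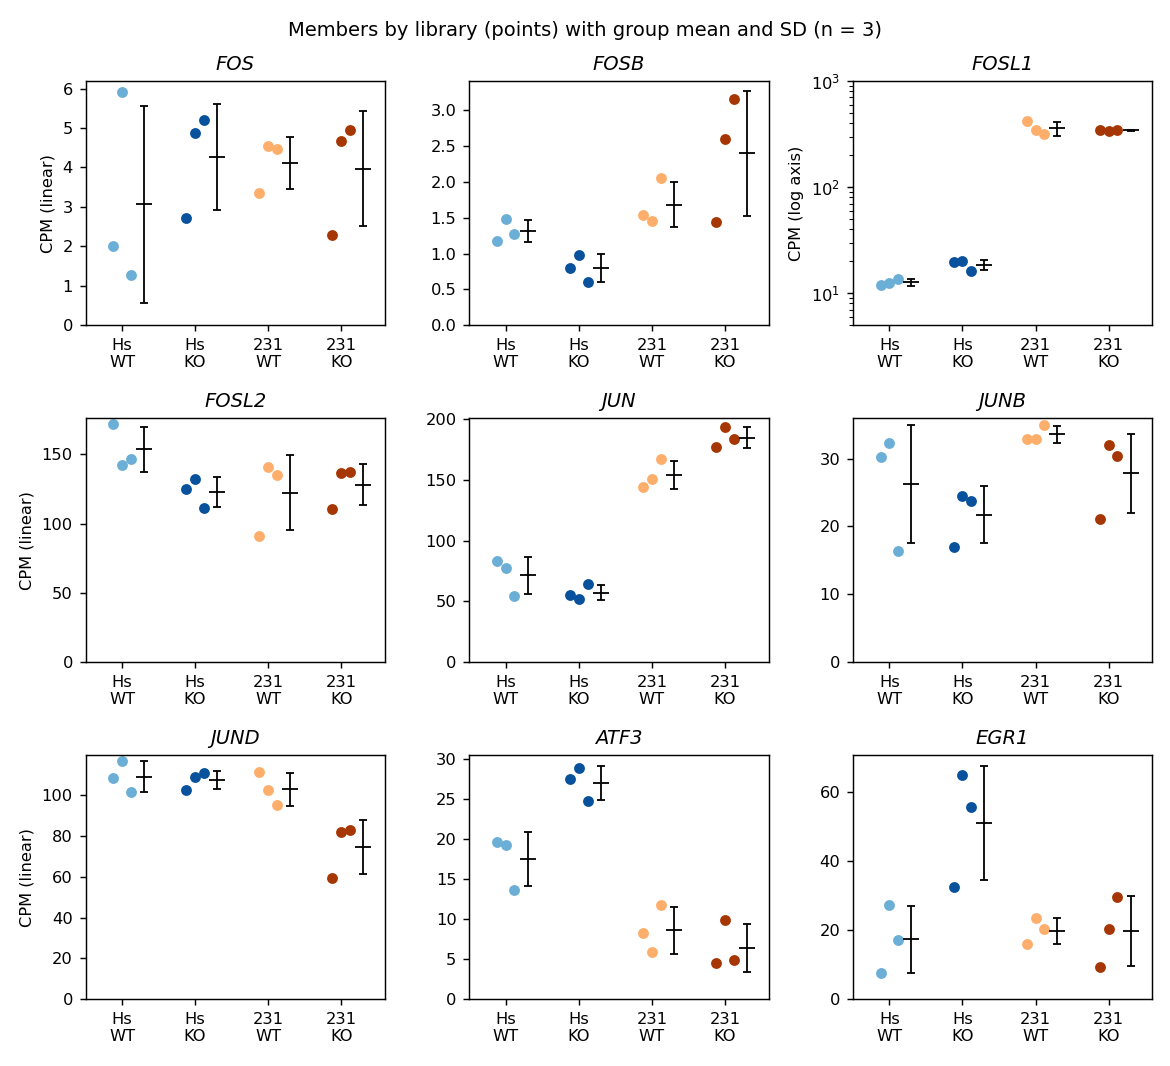
CPM of 9 members in each of the 12 libraries (points) with the group mean and SD (n = 3), for Hs578T (Hs) and MDA-MB-231 (231) with (WT) and without (KO) CD44; the axis of FOSL1 is logarithmic and the others start at 0. EGR1 is at 32.6 CPM or more in all Hs578T CD44 KO libraries and at 27.1 CPM or less in all CD44 WT libraries, and FOSL1 is at 315 CPM or more in every MDA-MB-231 library and at 20.04 CPM or less in every Hs578T library.

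**Figure D2:**
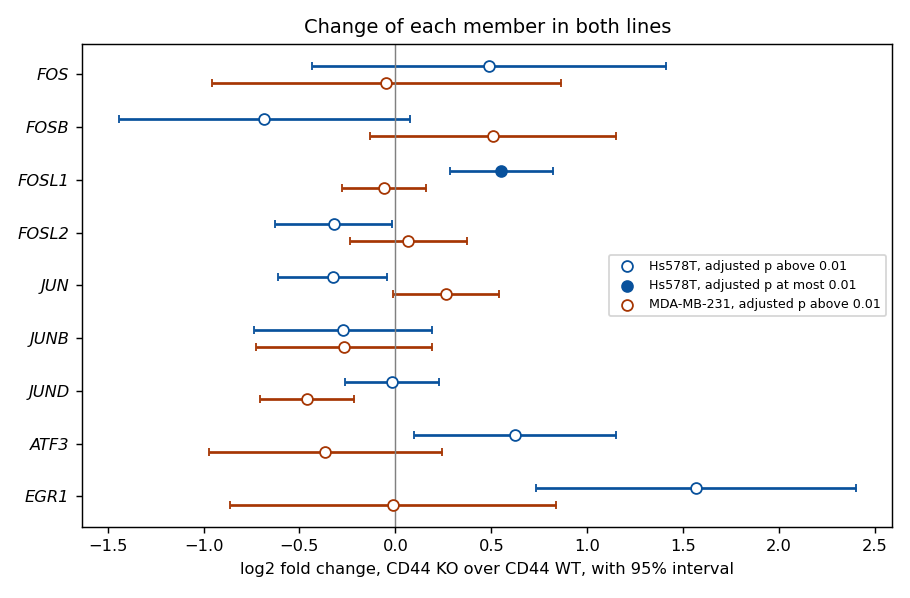
Change with CD44 loss, log2 of KO over WT (x axis), for 9 members (y axis) in Hs578T (blue) and MDA-MB-231 (brown), with 95% intervals from the edgeR fit; filled points passed an adjusted p of 0.01. FOSL1 in Hs578T is the only filled point, at 0.55, and the widest departure from 0 is EGR1 in Hs578T, at 1.57.

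FOSL1, also known as FRA1 (GRCh38 chromosome 11, 65892049 to 65900573, minus strand), was measured well in both lines. In Hs578T CD44 WT it measured 11.9, 12.6 and 13.7 CPM, and in Hs578T CD44 KO 19.5, 20.04 and 16.2 CPM. Every CD44 KO library lay above every CD44 WT library. The log2 fold change was 0.55 (SE 0.125, 95% interval 0.29 to 0.82, adjusted p = 0.00746, edgeR), a 1.47-fold higher level. The call was lost when any of 7 libraries was left out, with values of 0.50 without Hs578T CD44 WT replicate 1, 0.55 without replicate 2, 0.52 without Hs578T CD44 KO replicate 1, 0.49 without replicate 2, and 0.55 without MDA-MB-231 CD44 WT replicate 3 or MDA-MB-231 CD44 KO replicate 1 or 2, and adjusted p from 0.0101 to 0.0469 in these fits. It was also lost, narrowly, with Hs578T fitted alone (0.55, adjusted p = 0.01003, edgeR). In MDA-MB-231, FOSL1 measured 418, 342 and 315 CPM in CD44 WT and 347, 342 and 343 CPM in CD44 KO, and the groups overlapped. The log2 fold change there was -0.06 (SE 0.103, 95% interval -0.28 to 0.16, adjusted p = 0.800, edgeR). The change was larger in Hs578T by 0.61 on the log2 scale (SE 0.162, adjusted p = 0.0264, edgeR), which did not pass the threshold of 0.01.

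The other FOS proteins did not pass the test in either line. FOS, the founding member (chromosome 14, 75278774 to 75282230, plus strand), was counted 15 to 88 times per library. It measured 2.01, 5.92 and 1.27 CPM in Hs578T CD44 WT and 2.73, 4.87 and 5.20 CPM in CD44 KO. Replicate 2 of CD44 WT was the highest library of all 12, and the groups overlapped. In MDA-MB-231 it measured 3.34, 4.54 and 4.45 CPM in CD44 WT and 2.29, 4.66 and 4.94 CPM in CD44 KO. The 95% interval for its log2 fold change reached from -0.43 to 1.41 (Hs578T) and from -0.95 to 0.86 (MDA-MB-231), so changes of the size seen for FOSL1 were not detectable at this spread.

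FOSB (chromosome 19, 45467995 to 45475179, plus strand), which like FOS is induced early, was the lowest of the tested members, with 7 to 49 counts per library. In Hs578T it measured 1.18, 1.48 and 1.27 CPM with CD44 and 0.802, 0.986 and 0.597 CPM without, a log2 fold change of -0.68 (SE 0.356, adjusted p = 0.234, edgeR) with groups that did not overlap. In MDA-MB-231 the values were 1.54, 1.46 and 2.05 CPM with CD44 and 1.44, 2.60 and 3.16 CPM without (log2 fold change 0.51, SE 0.302, adjusted p = 0.335, edgeR), and the groups overlapped.

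FOSL2, the other late FOS protein (chromosome 2, 28392448 to 28417312, plus strand), was well counted. Hs578T CD44 WT libraries held 172, 142 and 147 CPM and CD44 KO libraries 125, 132 and 111 CPM, without overlap (log2 fold change -0.32, SE 0.143, adjusted p = 0.156, edgeR). MDA-MB-231 libraries held 91.3, 141 and 135 CPM with CD44 and 111, 137 and 137 CPM without, and the groups overlapped (log2 fold change 0.07, adjusted p = 0.844, edgeR). FOSL1 and FOSL2 thus had opposite signs in Hs578T, with only FOSL1 past the test. In MDA-MB-231 neither passed, and both signs turned without CD44 WT replicate 1 (FOSL1 0.0654, FOSL2 -0.11).

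JUN (chromosome 1, 58780788 to 58784327, minus strand), the strongest activator of the JUN proteins, differed more between the lines than with CD44. It measured 83.4, 77.2 and 54.4 CPM in Hs578T CD44 WT and 55.4, 52.1 and 64.4 CPM in CD44 KO (log2 fold change -0.33, SE 0.133, adjusted p = 0.123, edgeR), with overlapping groups. In MDA-MB-231 it measured 144, 151 and 167 CPM in CD44 WT and 177, 194 and 184 CPM in CD44 KO (log2 fold change 0.26, SE 0.129, adjusted p = 0.233, edgeR). These MDA-MB-231 groups did not overlap. The difference of both changes was -0.59 (SE 0.186, adjusted p = 0.0552, edgeR). Without Hs578T CD44 WT replicate 3, the lowest CD44 WT library of that line, the change in Hs578T was -0.49 (adjusted p = 0.00671) and the difference -0.75 (adjusted p = 0.00400), both past the threshold.

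JUNB (chromosome 19, 12791496 to 12793315, plus strand), an early JUN protein that can oppose JUN, measured 30.2, 32.2 and 16.3 CPM in Hs578T CD44 WT and 17.01, 24.5 and 23.8 CPM in CD44 KO, with overlap. In MDA-MB-231 it measured 32.9, 32.8 and 35.0 CPM in CD44 WT and 21.1, 31.9 and 30.4 CPM in CD44 KO, without overlap. The log2 fold change was -0.27 in both lines (SE 0.218 and 0.214, adjusted p = 0.469 and 0.496, edgeR).

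JUND (chromosome 19, 18279760 to 18281622, minus strand), the JUN protein that resting cells express, carried the CRE shown above. In Hs578T it measured 108, 116 and 101 CPM with CD44 and 103, 109 and 111 CPM without, an interval of the log2 fold change from -0.26 to 0.22. In MDA-MB-231 CD44 WT it measured 111, 102 and 94.9 CPM and in CD44 KO 59.3, 81.7 and 82.9 CPM, so every CD44 KO library was lower. The log2 fold change was -0.46 (SE 0.116, 95% interval -0.71 to -0.21, adjusted p = 0.0190, edgeR), outside the threshold of 0.01. DESeq2 gave -0.45 with an adjusted p of 0.00452, inside it. Leaving out any 1 library moved the edgeR value between -0.53 and -0.32 and the adjusted p between 0.0171 and 0.0640.

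ATF3, a stress-induced leucine zipper protein that pairs with JUN proteins (chromosome 1, 212565334 to 212620777, plus strand), measured 19.7, 19.3 and 13.6 CPM in Hs578T CD44 WT and 27.5, 28.9 and 24.7 CPM in CD44 KO. The groups did not overlap, and the log2 fold change was 0.62 (SE 0.247, adjusted p = 0.111, edgeR). Fitted with Hs578T alone, the same change had an adjusted p of 0.00960. In MDA-MB-231 it measured 8.23, 5.92 and 11.8 CPM in CD44 WT and 4.49, 9.85 and 4.94 CPM in CD44 KO, with overlap (log2 fold change -0.37, SE 0.285, adjusted p = 0.482, edgeR).

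EGR1, a zinc finger factor outside AP-1 that shares SRF as its switch (chromosome 5, 138465490 to 138469315, plus strand), had the largest change of the members in Hs578T. It measured 7.70, 27.1 and 17.3 CPM in CD44 WT and 32.6, 64.7 and 55.5 CPM in CD44 KO. All CD44 KO libraries were higher, while replicates of 1 group differed several-fold. The log2 fold change was 1.57 (SE 0.391, 95% interval 0.73 to 2.40, adjusted p = 0.0133, edgeR), 2.96-fold higher, which missed the threshold of 0.01. It passed without Hs578T CD44 WT replicate 2, at 2.05 (adjusted p = 0.00737), and without MDA-MB-231 CD44 KO replicate 1, at 1.57 (adjusted p = 0.00647), and it was farther from it with robust estimation (adjusted p = 0.0583). In MDA-MB-231, EGR1 measured 15.9, 23.4 and 20.2 CPM in CD44 WT and 9.49, 20.2 and 29.6 CPM in CD44 KO, with overlap and a log2 fold change of -0.01 (SE 0.400, 95% interval -0.86 to 0.84, adjusted p = 1, edgeR). The lines differed in this change by 1.58 (SE 0.558, adjusted p = 0.0870, edgeR), which did not pass.

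Of the 9 members, 5 had groups that did not overlap in Hs578T (FOSB and FOSL2 lower, FOSL1, ATF3 and EGR1 higher) and 3 in MDA-MB-231 (JUN higher, JUNB and JUND lower). Among all genes tested, 37.3% did not overlap in Hs578T and 25.5% in MDA-MB-231. For any 1 gene, exact two-sided permutation of 3 against 3 cannot give a p below 0.1.

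IER3 (chromosome 6, 30743199 to 30744554, minus strand), an early gene that affects cell survival, was counted 4 times in all 12 libraries and could not be tested. Its count was 0 in 8 libraries and 1 in each of the others. Genes beside it that most cells express were also nearly absent, among them TUBB with 4 counts, FLOT1 and GNL1 with 0, and, further along, CSNK2B with 4 and RPS18, a ribosomal protein gene, with 0. From 2 Mb before to 3 Mb after the start of IER3, 15 of 391 named genes (3.84%) passed the filter, against 90 of 286 (31.5%) in the rest of the 6 Mb on either side and 27.3% of all named genes. In the GRCh38 FASTA used here, which holds 261 alternate sequences among 455, each of 3 windows of 100 bases in IER3 was present in 5 or 6 sequences, of which 4 or 5 were alternates, while all 27 such windows of the other members were present in 1. The authors did not count fragments that aligned to several places, and whether their reference held these alternates is not given in the sources used here, so the part of this in the low count was not tested. The level of IER3 is therefore not read from these counts.

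**Figure D3:**
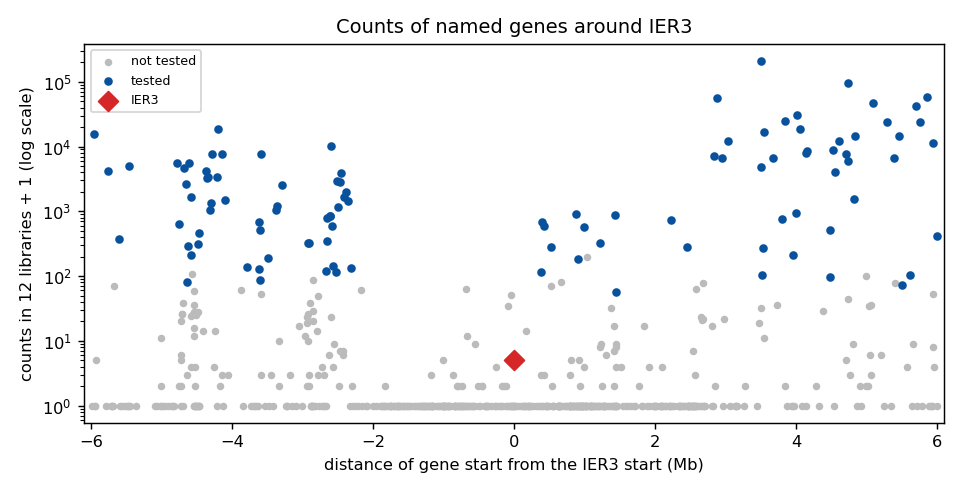
Counts over all 12 libraries plus 1 (y axis, log scale) of each named gene against the distance of its start from that of IER3 (x axis, Mb). Tested genes are blue, untested genes grey, and IER3 is the red diamond, with 4 counts. Between 2 Mb before and 0 Mb no gene was tested, and the highest of these genes has 61 counts.

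With CD44 present, the lines differed most in FOSL1. It was 28.2-fold lower in Hs578T, at 12.7 ± 0.933 CPM (n = 3) against 358 ± 53.2 CPM (n = 3) in MDA-MB-231, a log2 difference of -4.82 (SE 0.127, adjusted p = 1.07e-13, edgeR). JUN was 2.14-fold lower in Hs578T (log2 difference -1.10, SE 0.132, adjusted p = 2.18e-06) and ATF3 2.04-fold higher (1.03, SE 0.268, adjusted p = 0.00282, both edgeR). These 3 of 9 members were called, against 61.5% of all genes. The ATF3 call was lost without Hs578T CD44 WT replicate 1 (0.94, adjusted p = 0.0130) or 2 (0.97, adjusted p = 0.0114) or MDA-MB-231 CD44 WT replicate 3 (0.81, adjusted p = 0.0193), and a lower FOS in Hs578T was called without Hs578T CD44 WT replicate 2 (-1.29, adjusted p = 0.00964, edgeR).

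Per length, in RPKM (the CPM of a gene divided by its exonic length in kilobases), Hs578T CD44 WT ran from JUND at 58.4 ± 4.03 over FOSL2 at 21.5 ± 2.25, JUN at 20.3 ± 4.32, JUNB at 14.4 ± 4.76, FOSL1 at 6.74 ± 0.494, EGR1 at 5.54 ± 3.10, ATF3 at 4.34 ± 0.843 and FOS at 0.947 ± 0.772 to FOSB at 0.236 ± 0.0279 (mean ± SD, n = 3). The libraries of FOSL2 and JUN, JUN and JUNB, FOSL1 and EGR1, and EGR1 and ATF3 overlapped, and the other neighbours in this order did not. In MDA-MB-231 CD44 WT, FOSL1 came first at 190 ± 28.2 RPKM, before JUND at 55.2 ± 4.32, JUN at 43.5 ± 3.32, JUNB at 18.5 ± 0.678, FOSL2 at 17.1 ± 3.78, EGR1 at 6.31 ± 1.201, ATF3 at 2.14 ± 0.728, FOS at 1.27 ± 0.207 and FOSB at 0.303 ± 0.0575. Only JUNB and FOSL2 overlapped there. FOS and FOSB, the earliest AP-1 genes, were thus the lowest tested members per length in both lines.

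Replicates varied more for FOS and EGR1 than for most genes. Their within-group SD of log2 CPM was 0.67 and 0.68, above that of 98.2% and 98.4% of all genes tested, and above that of 98.8% and 100% of the 500 genes nearest in level. JUNB (0.35) and ATF3 (0.42) exceeded 97.6% and 95.6% of the genes nearest to them in level, whereas JUND (0.16) exceeded 70.6% and FOSL1 (0.14) 62.4%. Deviations from the group mean over the 12 libraries correlated between FOS and JUNB (Pearson r = 0.84), JUN and JUNB (0.75), FOS and EGR1 (0.73), JUNB and JUND (0.67), FOSB and EGR1 (0.64) and FOS and JUND (0.64), and in the opposite sense between FOSL1 and JUN (-0.72). Members of 1 library share its depth and scaling, so these are descriptions. MDA-MB-231 CD44 KO replicate 1 lay below its group mean in 8 of 9 members, with a median deviation of -0.37, and Hs578T CD44 WT replicate 2 was 1.19 above its group mean in FOS and 0.82 in EGR1.

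**Figure D4:**
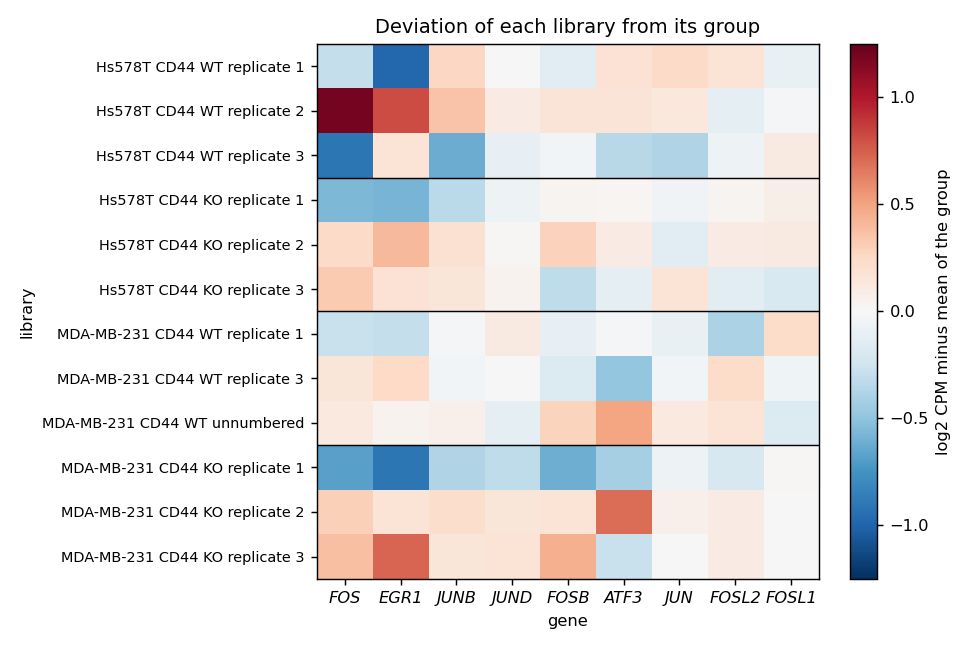
Deviation of log2 CPM from the mean of the group (color) for 9 members (columns) in 12 libraries (rows, groups separated by lines). FOS and EGR1 have the strongest colors, from -0.98 for EGR1 in Hs578T CD44 WT replicate 1 to 1.19 for FOS in replicate 2, and FOSL1 the weakest together with JUND.

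Genes known to restrain MAP kinase signalling were counted as a list beside the members, together with RNA decay factors and corepressors that bind EGR1. Many of them are induced by the same signals. In Hs578T, 4 of 18 tested genes of this list rose after CD44 loss and 1 fell (27.8%), against 7.51% of all genes, with a median log2 fold change of 0.20. DUSP6, the phosphatase that inactivates ERK, measured 20.9, 28.9 and 22.0 CPM in CD44 WT and 45.7, 85.5 and 59.9 CPM in CD44 KO, a log2 fold change of 1.42 (SE 0.201, adjusted p = 1.99e-04, edgeR). SPRY4 and SPRY2, Sprouty inhibitors of receptor signalling to RAS, rose by 0.93 and 0.71 (adjusted p = 0.00355 and 0.00284), and NAB2, a corepressor that binds EGR1, rose by 0.72 (adjusted p = 0.00781, all edgeR). For each of these 4, picked by their call, every Hs578T CD44 KO library lay above every CD44 WT library. Among all genes tested, 37.3% did not overlap in Hs578T in either direction, so this adds no support to the calls. ZFP36L2, an RNA decay factor, fell by 0.72 (log2 fold change -0.72, adjusted p = 5.57e-05, edgeR). Of the 12 fits that left out a library, the call was lost for NAB2 in 7, SPRY4 in 4 and SPRY2 in 3, and for DUSP6 and ZFP36L2 in 0. In MDA-MB-231, 0 of 18 passed at 0.01 (against 4.62% of all genes) or 0.05 with edgeR or at 0.01 with DESeq2. There, 4 had an unadjusted p under 0.05. By immunoblot, the study saw no significant change of ERK activation between CD44 WT and KO cells. RNA levels do not measure ERK activity, and its part in these changes was not tested.

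**Figure D5:**
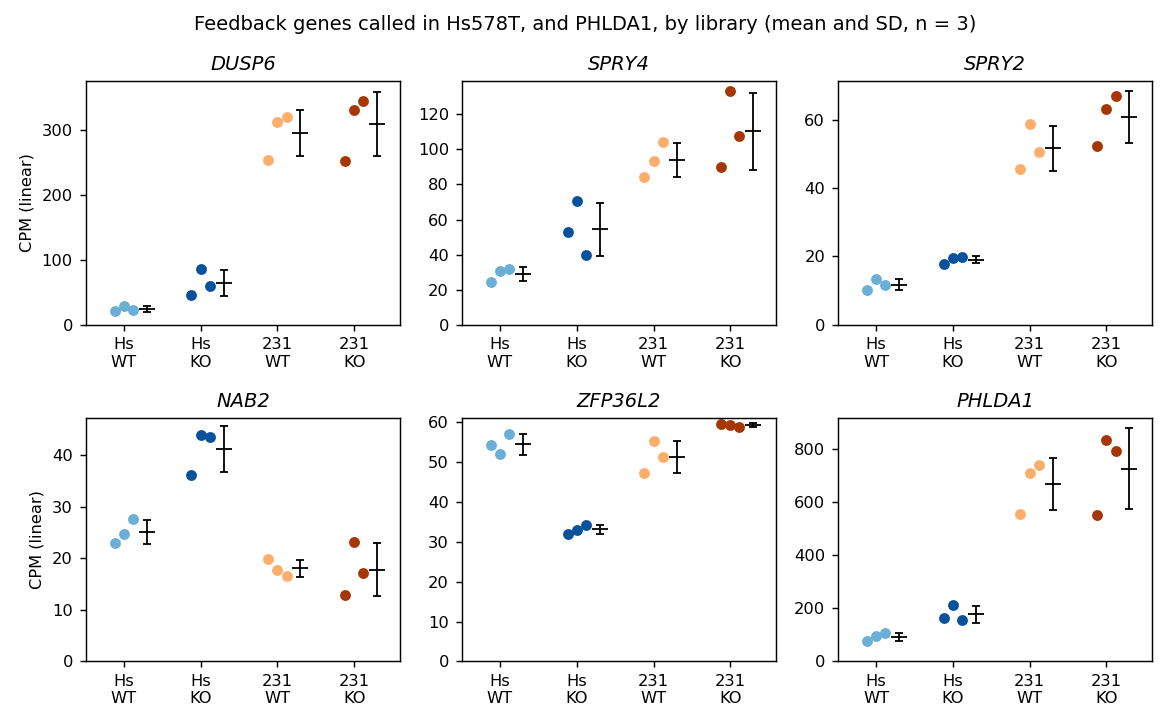
CPM of DUSP6, SPRY4, SPRY2, NAB2, ZFP36L2 and PHLDA1 in each library (points; group mean and SD, n = 3; axes start at 0), in Hs578T (Hs) and MDA-MB-231 (231). DUSP6 reaches 28.9 CPM in Hs578T CD44 WT and is at 45.7 CPM or more in CD44 KO, and lies between 253 and 344 CPM in MDA-MB-231, where the groups overlap.

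Among 21 other immediate early genes tested in Hs578T, 1 rose and 2 fell (14.3%, against 7.51% of all genes). PHLDA1, an early gene induced by ERK, went from 92.8 ± 14.7 to 177 ± 32.3 CPM (log2 fold change 0.93, adjusted p = 0.00178), CCN1, a matrix protein gene driven by SRF and YAP, from 49.0 ± 14.8 to 23.6 ± 5.72 CPM (-1.06, adjusted p = 0.00240), and IER5, an early response factor, from 52.9 ± 4.52 to 36.4 ± 4.34 CPM (-0.54, adjusted p = 0.00981; n = 3 per group, edgeR). In MDA-MB-231, 1 of 21 passed (4.76%, against 4.62% of all genes). This was GEM, a small GTPase gene, which rose by 0.60 (adjusted p = 0.00732, edgeR), a call lost with that line fitted alone (adjusted p = 0.0223). The IER5 call was lost with RLE factors, another library scaling (adjusted p = 0.0101). Of the 12 fits that left out a library, calls were lost for IER5 and GEM in 8 each, CCN1 in 3 and PHLDA1 in 2. Early genes thus did not move one way: 11 had a higher and 10 a lower sign in each line, with a median of 0.00629 in Hs578T and 0.00130 in MDA-MB-231.

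Of 16 other leucine zipper partners tested, 2 fell in Hs578T (12.5%, against 7.51% of all genes). In MDA-MB-231, 1 rose and 1 fell (12.5%, against 4.62% of all genes). MAF fell in Hs578T from 4.34 ± 0.600 to 0.123 ± 0.0376 CPM (n = 3 per group, log2 fold change -5.03, adjusted p = 8.18e-07, edgeR), from 168 to 5 counts over the group. In MDA-MB-231, CREM, which binds the CRE, rose by 0.64 (adjusted p = 0.00182) and JDP2, which pairs with JUN and represses AP-1 sites, had a log2 fold change of -0.97 (adjusted p = 0.00467, edgeR). Both calls were lost with MDA-MB-231 fitted alone (adjusted p = 0.0115 for CREM and 0.0406 for JDP2), and in 2 and 4 of the 12 fits that left out a library. Of 21 kinases and factors upstream of these genes, 0 passed in Hs578T with edgeR (against 7.51% of all genes) or DESeq2. Of the 21, 4 reached an unadjusted p under 0.05 in that line. With edgeR, 1 of 21 was called for MDA-MB-231 (4.76%, against 4.62% of all genes). It was MAPK8, a JUN kinase gene, which rose by 0.55 (adjusted p = 0.00589, edgeR). The MAPK8 call was lost with that line fitted alone (adjusted p = 0.0422) and in 4 of the 12 fits that left out a library.

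Of 21 known AP-1 target genes tested, 2 passed in each line (9.52%), VIM and the chemokine gene CCL2. Calls made up 7.51% of all tested genes for Hs578T, while the MDA-MB-231 share was 4.62%. VIM rose by 0.38 in Hs578T and 0.43 in MDA-MB-231 (adjusted p = 0.00386 and 0.00253, edgeR). CCL2 had log2 fold changes of -1.53 and -3.85 (adjusted p = 0.00371 and 2.54e-07, edgeR). The VIM call in MDA-MB-231 was lost with that line fitted alone (adjusted p = 0.0224). Leaving out a library ended it in 2 of 12 fits, and the Hs578T calls of VIM and CCL2 in 4 each. With CD44 present, 16 of these 21 genes were lower and 2 higher in Hs578T than in MDA-MB-231 (adjusted p of 0.01, edgeR), in a comparison that called 61.5% of all genes, with a median log2 difference of -2.53 against 0.04 over all genes. Heat shock genes, which handling stress induces together with ATF3 and FOS, had a negative sign in 10 of 10 tested genes in Hs578T and a median of -0.23. In Hs578T, 1 was called (10%, against 7.51% of all genes), HSPH1 (-0.54, adjusted p = 4.31e-04, edgeR). In MDA-MB-231, 0 were called by edgeR (against 4.62% of all genes) or DESeq2, with 1 at an unadjusted p under 0.05. HSPA1A and HSPA1B, also on this list, had 0 counts in all 12 libraries and could not be tested. Both start 1.07 to 1.08 Mb beyond IER3, within the stretch where few genes passed the filter. The part of heat shock genes in the changes of the members was not tested.

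Neighbours of the members on the chromosome, the tested genes starting within 1 Mb, were compared in the same fits. The median log2 fold change in Hs578T was -0.39 over 19 neighbours of FOSL2, of which 1 rose and 3 fell. This was close to -0.32 for FOSL2 itself. Over 48 neighbours of JUNB the median was -0.19, and 12 of them fell. In Hs578T 7.51% of all genes were called in either direction, and in MDA-MB-231 4.62%. Around JUND in MDA-MB-231 the median was -0.17 over 50 neighbours, of which 2 rose and 2 fell. Around FOSL1 and EGR1 in Hs578T the medians were 0.03 over 78 and 0.12 over 20 neighbours, of which 1 and 2 rose and none fell. The medians of the remaining pairs of member and line ran from -0.22 (JUNB in MDA-MB-231) to 0.10 (FOS in Hs578T). Among them, 6 of 57 neighbours of FOSB and 3 of 50 of JUND in Hs578T fell, as did 3 of 26 of FOS in MDA-MB-231. In the other direction, 2 of 26 neighbours of FOS in Hs578T and 1 of 57 of FOSB in MDA-MB-231 rose. For the 4 members of widest range, the tested gene with the most similar log2 CPM over the 12 libraries was MYEOV for FOSL1 (Pearson r = 0.998), P4HB for ATF3 (0.974), NUF2 for FOSB (0.95) and NR2F1 for EGR1 (0.904). These 12 points hold 2 lines, and the correlations are descriptions.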

How the data were processed

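RNA-seq counts of 12 libraries, 3 in each of 4 groups, were analysed. The authors aligned the paired reads with HISAT2 (version 2.1.0) to GRCh38. Fragments were assigned to GENCODE genes with featureCounts 1.6.2, by strand and without fragments that aligned to several places or genes. The deposited table holds raw whole-number counts. The labels of 2 replicates share the column name of 1 MDA-MB-231 CD44 WT library, which was therefore left unnumbered.

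The filter kept 15836 genes, those above 1 CPM in 2 or more libraries whose exons span 300 nt or more. As worded, the study's methods keep genes under 300 nt, which would leave out all 10 members, so the opposite side of that length was kept here. Models were fitted in edgeR 4.0.16 under R 4.3.3 (TMM factors, glmQLFit with the legacy fit, glmQLFTest) with 4 group means over all libraries, and the threshold for a call was 0.01 after Benjamini-Hochberg adjustment. CPM was scaled with TMM factors, and log2 CPM used a prior count of 2. Genes starting within 1 Mb were taken as neighbours. The fits were tested on simulated data. All 10 members are described, and from each other list the called genes, at most 6 per list and line. The members, the lists and the tests were chosen with earlier results of these data known. Alternatives were DESeq2 1.42.0, RLE factors, library size only, no filter on low counts, each line fitted alone, robust estimation, an adjusted p of 0.05, blocks and each library left out. Counts of a gene limit its precision: intervals on counts cover counting error only. One gene of the leucine zipper list is included in that list's counts, but its own values are not reported here.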

Additional observations from a re-analysis of the deposited data

Results flagged for a closer look

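The change after CD44 loss differed between the lines for 6 genes named here, by the test of the difference itself, and for none of the 9 members. These were 2 of 16 leucine zipper partners, 2 of 18 genes restraining MAP kinase signalling, 1 of 21 AP-1 targets and 1 of 8 cell type markers tested. The other lists held none, and 4.12% of all 15836 genes passed, so the count is not read as a result about the lists. The log2 difference, Hs578T minus MDA-MB-231, was 1.35 for DUSP6 (adjusted p = 0.00508), 1.38 for JDP2 (adjusted p = 0.00341), -6.21 for MAF (adjusted p = 8.20e-06), -0.93 for ZFP36L2 (adjusted p = 1.83e-04), 2.31 for CCL2 (adjusted p = 0.00269) and 5.66 for PTPRC (adjusted p = 0.00116, edgeR throughout). CCL2 was lower without CD44 in both lines and more so in MDA-MB-231. The value for PTPRC rests in MDA-MB-231 on 10 counts with CD44 and 2 without. The level was 5.74 times as high with CD44, with an exact 95% counting interval from 1.22 to 53.9. The size of the PTPRC difference is thus poorly known, and its call did not hold under every alternative. PTPRC also passed the filter of 1 CPM only through Hs578T CD44 KO, at 3.78 CPM on average. Averages were 0.369 CPM in Hs578T CD44 WT, and 0.287 and 0.051 CPM in MDA-MB-231 with and without CD44. The adjusted p of PTPRC is therefore not read as support. The DUSP6 difference was lost in 8 of 12 fits that left out a library, over which it ran from 1.08 to 1.54 with adjusted p from 0.00147 to 0.0201, and with robust estimation (adjusted p = 0.0107). The JDP2 difference was lost in 5 of 12, from 1.21 to 1.70, and the CCL2 difference in 1 of 12 (adjusted p up to 0.0223). With 3 libraries a group, single libraries were not tested as outliers.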

How the results depend on the processing

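Over all fits run, the direction of FOSL1, EGR1 and ATF3 in Hs578T and of JUND in MDA-MB-231 was kept, while the calls moved. The cause was not tested. Hs578T gave 1189 called genes and MDA-MB-231 731, and the changes differed for 653. DESeq2 called 1138 in MDA-MB-231 and 1177 for the difference, with 1 member, JUND, in MDA-MB-231. Without a filter on low counts the numbers were 1984, 1370 and 1373, with 3, 1 and 4 members, and each line fitted alone gave 315 in MDA-MB-231. At an adjusted p of 0.05 they were 2253, 1518 and 1670, with 2, 1 and 1 members. Leaving out 1 library gave 605 to 1685, 355 to 763 and 396 to 804, with 0 to 2, 0 to 0 and 0 to 1 members, and 8669 to 9827 genes and 2 to 3 members for the lines with CD44 (9742 and 3).

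Replicate numbers did not pair the libraries: deviations of same-numbered libraries correlated at -0.06, 0.02 and -0.10 for the Hs578T pairs, and at 0.01 and 0.16 for both MDA-MB-231 pairs. With the replicate block, which drops the unnumbered library, 190 genes were called in MDA-MB-231 and 281 for the difference; EGR1 in Hs578T was then 1.64 (adjusted p = 5.91e-04) and FOSL1 0.55 (adjusted p = 0.0176). Calls outside the members that this block ended were CCN1 (adjusted p = 0.0167) and VIM (0.0109) in Hs578T, CREM (0.0354), GEM (0.0392), MAPK8 (0.0416) and VIM (0.0649) in MDA-MB-231, and the PTPRC difference (5.28, adjusted p = 0.0496). The comparison of the lines could not be fitted with the block, which is nested within line. Consecutive label numbers as a block, chosen after seeing the data, gave 2 members in Hs578T, with EGR1 at 1.62 (adjusted p = 0.00859), and ended the calls of NAB2 in Hs578T (adjusted p = 0.0175) and of GEM (0.0111) and MAPK8 (0.0112) in MDA-MB-231.

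Signs turned only in changes far from the threshold. EGR1 in MDA-MB-231 was 0.00703 with DESeq2, 0.00592 with library size only, 0.00565 without the filter and 0.00455 fitted alone, and -0.38 to 0.31 with a library left out. The JUNB difference was 0.13 with the replicate block, 0.0471 with the other block and -0.25 to 0.15 with a library left out. With a library left out, JUND in Hs578T ran from -0.0674 to 0.0338, FOS in MDA-MB-231 from -0.20 to 0.22, FOSL1 there from -0.14 to 0.0654, FOSL2 there from -0.11 to 0.18, and EGR1 between the lines from -0.67 to 0.17. FOSB had the fewest counts of the tested members, 7 to 49 per library.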
